A study of Mus musculus with 4 samples.

Results

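The genes described here are 10 enzymes and helpers that modify collagen: the 5 lysyl oxidases Lox, Loxl1, Loxl2, Loxl3 and Loxl4, the 3 lysyl hydroxylases Plod1, Plod2 and Plod3, the prolyl hydroxylase subunit P4ha1, and the collagen chaperone Serpinh1. They were chosen by gene symbol, as a set proposed when the knockout and control CPM values of this same comparison were already known, Lox and Loxl2 among those seen to be lower. Their differences between genotypes are therefore given as a description, and the fit over all genes serves to place them, not to support them. All 10 were found among 12799 genes in the deposited table, and all 10 were among the 11781 genes that entered the fit. No other readout in the files is independent of this choice.

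Collagen chains are hydroxylated on proline and lysine in the endoplasmic reticulum, by enzymes that need iron and ascorbate, and they fold into a triple helix with the help of chaperones. After secretion, lysyl oxidases, which need copper, convert lysine and hydroxylysine residues of collagen and elastin into reactive aldehydes that form the covalent cross-links of mature fibres. Osteoclasts are best known for degrading this cross-linked matrix, and the enzymes are studied mostly in fibroblasts and osteoblasts, which deposit it.

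Poly(A) RNA was sequenced from marrow monocytes of 12-week-old female mice, taken as the cells that stayed in suspension over 2 days of culture, grown with M-CSF at 30 ng/mL, and then given M-CSF at 30 ng/mL with RANKL at 50 ng/mL for 3 days, an early stage of osteoclast formation. Knockout cells were Csf1r-iCre;Piezo1fl/fl (n = 2 libraries), in which a Cre recombinase transgene driven by the Csf1r promoter acts in the monocyte lineage. Control cells, called wild-type in the labels, were Piezo1fl/fl without the transgene (n = 2 libraries), so both genotypes carried the loxP-flanked Piezo1 allele. With Cre in the knockouts alone, transgene and Piezo1 loss cannot be told apart. All 4 libraries have the same batch value, and the series describes the 2 of each genotype as biological replicates without naming the animals. Levels are given in CPM, gene counts scaled to a common library size.

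The libraries held 14997205 and 18897927 gene reads in the knockouts and 15320308 and 14122118 in the controls, which makes 1 read worth 0.0544 to 0.0700 CPM. Piezo1, the mechanically gated cation channel that the design removes, was at 61.0 and 56.2 CPM in the knockouts, against 430.1 and 384.5 CPM in the controls. The cells carried the transcripts of their label: all 11 osteoclast markers were measured, with cathepsin K (Ctsk) at 23577 and 26656 CPM in the knockouts and 23060 and 23825 CPM in the controls, as were all 8 monocyte and macrophage markers. Of 15 markers of stromal, fibroblast and osteoblast cells, 13 were measured and 2, Thy1 and Bglap, were not analysed here. The 6 markers of B, T and NK cells were not analysed here either.

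The 5 lysyl oxidases share a catalytic domain that binds copper through a short stretch rich in histidine. The codons of that stretch are shown to let the members be compared at the copper site. By their other domains, Loxl2, Loxl3 and Loxl4 are usually grouped apart as enzymes with scavenger receptor domains. Each line gives the 33 bases, 11 codons, found by translating the longest protein-coding transcript of the gene in GENCODE release M21 and searching for the pattern of the copper-binding histidines, with the 4 histidine codons in capitals.
Loxl1: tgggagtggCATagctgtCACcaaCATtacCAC
Loxl2: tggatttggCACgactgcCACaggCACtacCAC
Loxl3: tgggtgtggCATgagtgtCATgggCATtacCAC
Loxl4: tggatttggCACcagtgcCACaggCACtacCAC
The pattern searched for fixed all but 3 of the 11 residues, so no pair could differ at more than 3 residues. Loxl2 and Loxl4 differed at 2 of the 33 bases and 1 of the 11 residues, while Loxl1 and Loxl2 differed at 11 bases and 3 residues. The Loxl3 stretch differed from each of the other 3 at 8 bases and 3 residues. Loxl1 and Lox differed at 1 base and encoded the same 11 residues.

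All 5 lysyl oxidases had a lower mean in the knockouts, and for 4 of them both knockout libraries lay below both controls. In bulk RNA, fewer cells of a type and less RNA per cell cannot be told apart. Loxl2, a secreted enzyme that cross-links type IV collagen of basement membranes among other substrates, differed most by fold change when all libraries were used. It was at 17.8 and 25.9 CPM in the knockouts, against 36.4 and 47.7 CPM in the controls, so the knockout mean was 52.0% of the control mean. Its spread was wide in both genotypes, and the higher knockout was still below the lower control. The log2 fold change of Loxl2, knockout over control on the log2(CPM + 0.5) scale, was -0.94 (SE 0.20, 95% interval -1.41 to -0.47), and the adjusted p over all genes tested was 0.290 (limma, Benjamini-Hochberg). In GRCm38 Loxl2 lies on chromosome 14, from 69609068 to 69695834 on the plus strand.

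Loxl3, a relative of Loxl2 with the same scavenger receptor domains, was at 28.8 and 31.0 CPM in the knockouts, against 51.3 and 47.95 CPM in the controls. The libraries of each genotype were close to each other and the groups were well apart, and the knockout mean was 60.3% of the control mean. Of the 10 genes, Loxl3 had the smallest p in the fit, with a log2 fold change of -0.72 (SE 0.11, 95% interval -0.97 to -0.47) and an adjusted p of 0.0853 in limma, still above the threshold of 0.05. Exons of Loxl3 (chromosome 6, 83034173 to 83052562, plus strand) share 535 bases, 11.6% of its exon length, with Htra2 on the opposite strand, and the labels do not say whether reads were counted by strand. Htra2, a mitochondrial protease, was at 56.4 and 58.7 CPM in the knockouts and 49.6 and 58.3 CPM in the controls, groups that overlap.

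Lox itself, the founding enzyme of the family, which cross-links fibrillar collagen and elastin, was at 62.56 and 62.46 CPM in the knockouts, against 83.1 and 103.9 CPM in the controls. The knockouts were almost equal, the controls were further apart, and the groups did not overlap. The log2 fold change of Lox was -0.57 (SE 0.12, 95% interval -0.85 to -0.28), with a limma adjusted p of 0.290, and the knockout mean was 66.9% of the control mean. Lox lies on the minus strand of chromosome 18, from 52516067 to 52529867 in GRCm38.

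Loxl1, which is needed for elastic fibre maintenance in mice, was at 12.1 and 13.2 CPM in the knockouts, against 17.5 and 15.6 CPM in the controls. The groups were separate but close, and the knockout mean was 76.3% of the control mean (log2 fold change -0.38, SE 0.14, limma adjusted p = 0.951). Loxl4 was near the limit of detection, with 16 and 19 reads in the knockouts and 15 and 26 reads in the controls, or 1.06 and 1.03 CPM against 0.974 and 1.82 CPM. One control lay below both knockouts and the other above them, so no difference in Loxl4 was detectable at this depth.

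**Figure D1:**
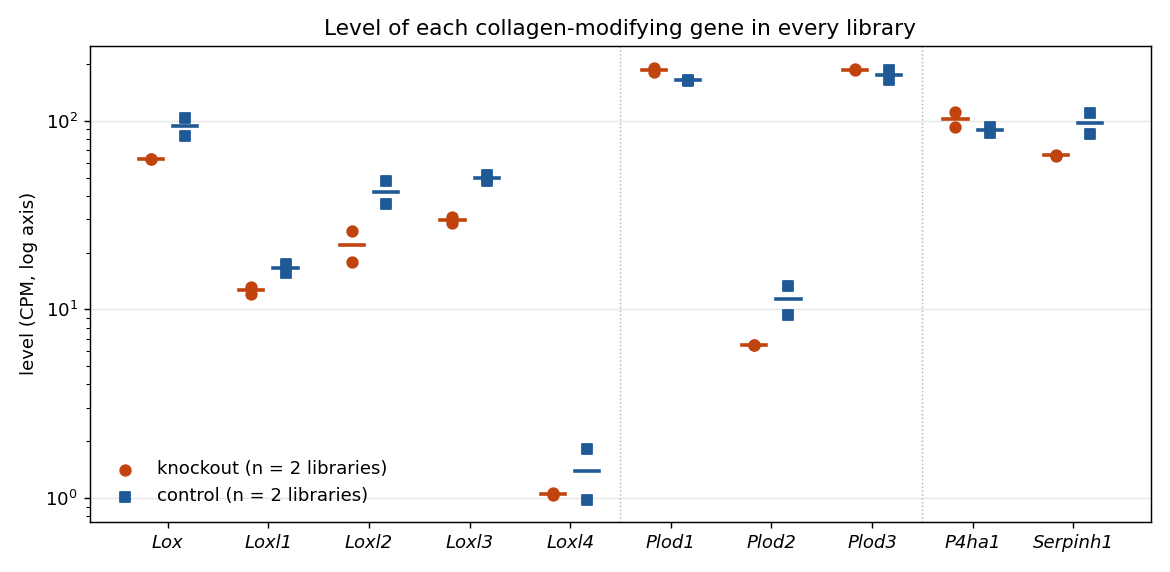
Level of the 10 genes in each of the 4 libraries, in CPM on a log axis, with knockouts as circles left of controls as squares and a short line at each mean of 2 libraries. Lox, Loxl1, Loxl2, Loxl3, Plod2 and Serpinh1 have both knockouts below both controls, while Plod1 and Plod3 lie slightly the other way and P4ha1 and Loxl4 overlap.

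Levels were also divided by the length of all annotated exons of a gene, merged over its transcripts. That length can exceed the length of the transcripts present, so shares and orders of genes per kilobase depend on the annotation. Added up this way, the lysyl oxidase transcripts came to 26.6 and 28.9 CPM per kilobase in the knockouts, against 40.8 and 46.2 in the controls. Lox made up the largest part of this sum in all 4 libraries, at 49.3% and 45.3% in the knockouts and 42.6% and 47.1% in the controls. Loxl3 followed, with 23.6% and 23.4% in the knockouts and 27.3% and 22.6% in the controls. The share of Loxl2 was 12.4% and 16.6% in the knockouts and 16.5% and 19.1% in the controls, so its ranges overlapped even though its level did not. Loxl1 had 13.8% of the sum in both knockouts, against 13% and 10.3% in the controls, so its share was slightly higher in the knockouts although its level was lower. Loxl4 made up 0.943% and 0.850% in the knockouts and 0.567% and 0.936% in the controls.

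**Figure D2:**
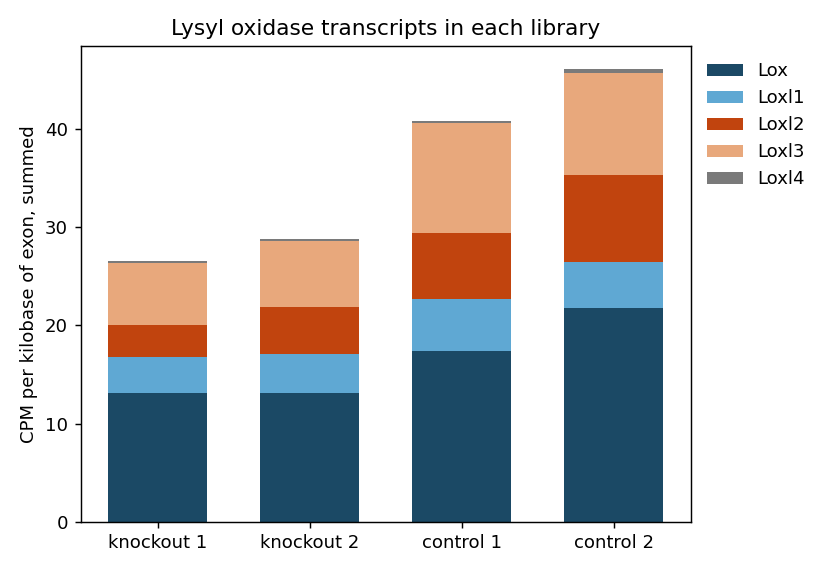
Summed level of the 5 lysyl oxidase transcripts in each library, in CPM per kilobase of exon, split by gene from Lox at the bottom to Loxl4 at the top, with no error bars because each bar is 1 library. The knockout bars reach 26.6 and 28.9, and the control bars 40.8 and 46.2.

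The lysyl hydroxylases divided. Plod2, which hydroxylates lysines in the collagen telopeptides and so sets the kind of cross-link that lysyl oxidases can form, was at 6.47 CPM in both knockouts, against 9.35 and 13.2 CPM in the controls. These levels rest on 98 and 119 reads in the knockouts and 144 and 189 reads in the controls, and the groups did not overlap. The Plod2 mean in the knockouts was 57.3% of that in the controls, with a log2 fold change of -0.74 (SE 0.20, 95% interval -1.20 to -0.27) and a limma adjusted p of 0.542.

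The other two lysyl hydroxylases had slightly higher means in the knockouts. Plod1, which acts on lysines of the collagen helix, was at 182.5 and 191.7 CPM in the knockouts, against 165.5 and 162.3 CPM in the controls (log2 fold change 0.19, 95% interval -0.01 to 0.39, limma adjusted p = 0.9997). Plod3, which can also attach sugars to hydroxylysine, was at 186.0 and 187.6 CPM in the knockouts, against 185.2 and 164.8 CPM in the controls (log2 fold change 0.10, 95% interval -0.13 to 0.32, limma adjusted p = 0.9997). Both genes had no overlap between groups, but for Plod3 the nearest libraries were less than 1 CPM apart. Plod3 exons share 529 bases, 11.7% of their length, with Znhit1 on the opposite strand. Znhit1 was at 29.2 and 33.2 CPM in the knockouts, against 33.8 and 39.7 CPM in the controls, with no overlap. Per kilobase, Plod2 was a minor part of the lysyl hydroxylase transcripts, at 1.73% and 1.69% in the knockouts and 2.58% and 3.90% in the controls. Plod3 made up 58.4% to 59.4% in the knockouts and 58.0% to 61.0% in the controls. In CPM, Plod1 and Plod3 had nearly equal means in the knockouts, 187.1 and 186.8. Their distance per kilobase there came from merged exon lengths of 6765 and 4519 bases.

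P4ha1 encodes a catalytic subunit of the prolyl hydroxylase that stabilises the collagen triple helix, and Serpinh1 encodes Hsp47, the chaperone that binds the folded procollagen helix. P4ha1 was at 111.7 and 92.2 CPM in the knockouts, against 85.9 and 92.6 CPM in the controls. Its groups overlapped, with a log2 fold change of 0.19 (95% interval -0.09 to 0.46) and a limma adjusted p of 0.9997. P4hb, its partner subunit, was at 1035 and 947 CPM in the knockouts and 926 and 1040 CPM in the controls, also with overlap. Serpinh1, in contrast, was at 65.3 and 66.1 CPM in the knockouts, against 85.3 and 109.8 CPM in the controls, with no overlap. The Serpinh1 mean in the knockouts was 67.3% of that in the controls, with a log2 fold change of -0.56 (SE 0.13, 95% interval -0.86 to -0.26) and a limma adjusted p of 0.351.

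The RefSeq table of promoters on GRCm38.p6, 250 bases before to 50 after each gene start, matched 5 of the 10 genes: Serpinh1, P4ha1, Plod1, Plod3 and Loxl4. The promoters of Serpinh1, which was lower in both knockouts, and of P4ha1, which was not, are shown as the pair of helix-forming genes whose levels differed in direction. Serpinh1 is at chr7:99353190-99353489, minus strand, and P4ha1 at chr10:59323046-59323345, plus strand. Capitals mark matches to ACGTG, the core of the hypoxia response element, on either strand.
Serpinh1: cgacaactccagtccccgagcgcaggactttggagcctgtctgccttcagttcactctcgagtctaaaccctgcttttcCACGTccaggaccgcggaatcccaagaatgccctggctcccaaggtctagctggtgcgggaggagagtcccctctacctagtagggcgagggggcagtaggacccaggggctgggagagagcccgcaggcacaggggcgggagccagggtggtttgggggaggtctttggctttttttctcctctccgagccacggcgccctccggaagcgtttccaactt
P4ha1: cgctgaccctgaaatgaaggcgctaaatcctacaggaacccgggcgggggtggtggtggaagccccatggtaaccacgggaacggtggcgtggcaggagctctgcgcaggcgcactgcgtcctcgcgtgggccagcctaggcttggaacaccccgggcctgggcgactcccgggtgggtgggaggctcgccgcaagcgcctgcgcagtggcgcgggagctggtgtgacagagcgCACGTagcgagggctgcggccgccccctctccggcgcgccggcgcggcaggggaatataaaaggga
Each promoter held 1 such match, 171 bases before the start in Serpinh1 and 16 bases before it in P4ha1, and 19.6% of all 32851 promoters in the table held at least 1. The TEAD site GGAATG, present in 14.7% of promoters, and the heat shock element GAANNTTC, present in 7.9%, had no match in either window, both strands being searched. The GC box GGGCGG, found in 35.7% of promoters, occurred in both, 1 time in Serpinh1 and 2 times in P4ha1, and the CCAAT box, found in 37.4%, in neither. GC content was 62.3% in the Serpinh1 window and 70.3% in the P4ha1 window, against a median of 52.7% over all promoters.

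All members were set side by side per kilobase of merged exons, an order that depends on the annotated lengths. In the knockouts the highest 4 genes were Plod3 at 41.3 ± 0.254 CPM per kilobase, Plod1 at 27.7 ± 0.955, Serpinh1 at 26.9 ± 0.241 and P4ha1 at 24.8 ± 3.36 (SD, n = 2). Of these, Plod1, Serpinh1 and P4ha1 all overlapped each other. In the controls Serpinh1 stood first, at 39.9 ± 7.09 CPM per kilobase, and overlapped Plod3 at 38.7 ± 3.20, followed by Plod1 at 24.2 ± 0.329 and P4ha1 at 21.7 ± 1.15. Lox came next in both genotypes, at 13.1 ± 0.0152 in the knockouts and 19.6 ± 3.08 in the controls, where it overlapped P4ha1. Below Lox the order was the same in both genotypes, Loxl3, Loxl2, Loxl1, Plod2 and Loxl4, with Loxl2 and Loxl1 overlapping in the knockouts.

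Taken over the set, 6 of the 10 genes had both knockouts below both controls, namely Lox, Loxl1, Loxl2, Loxl3, Plod2 and Serpinh1, where 15.4% of all tested genes did, and 2 had both knockouts above both controls, where 16.5% did. The same 6 genes were those with an unadjusted p under 0.05 in the direction of lower knockouts, which held for 3.55% of all tested genes. None of the 10 passed an adjusted p of 0.05 in limma or in edgeR, against 0.161% of tested genes that limma called in either direction. DESeq2 called 4 of the 10 lower, Loxl3 (adjusted p = 0.00275), Loxl2 (0.00398), Lox (0.0313) and Serpinh1 (0.0485), where it called 0.475% of tested genes lower. The median log2 fold change of the 10 genes was -0.47, and that of all tested genes was 0.002. Because the set was put together with this contrast known, nothing is read from these counts.

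The calls depended on which libraries were used. With 1 library left out, DESeq2 called Loxl2 alone without knockout 2 and none of the 10 without knockout 1, control 1 or control 2. Without knockout 2, limma called Loxl2 (adjusted p = 0.00803) and Loxl3 (adjusted p = 0.0363), and it called none without any of the other 3 libraries. Control 2 had the highest level of Lox, Loxl2, Plod2 and Serpinh1 among the 4 libraries. Without control 2 the log2 fold changes were -0.41 for Lox, -0.75 for Loxl2, -0.50 for Plod2 and -0.38 for Serpinh1, while Loxl3 was at -0.77.

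**Figure D3:**
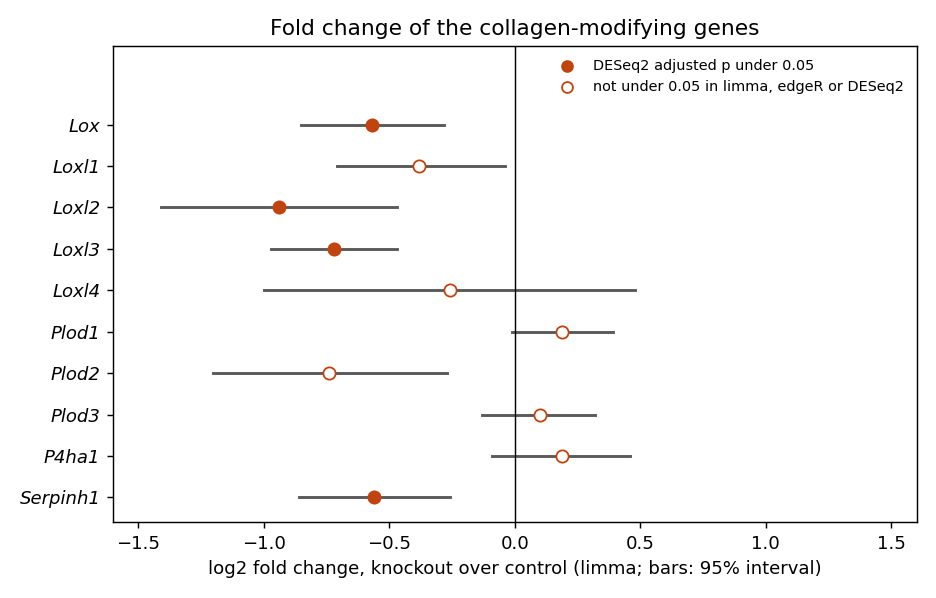
Log2 fold change, knockout over control, of the 10 genes from the fit over all genes, with bars for the 95% interval of limma (n = 2 libraries a genotype). The intervals of Lox, Loxl1, Loxl2, Loxl3, Plod2 and Serpinh1 lie below 0, those of Loxl4, Plod1, Plod3 and P4ha1 span 0, and filled points mark the 4 genes that DESeq2 called.

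The genes on which these enzymes act were also lower by their means. Of 10 tested collagen genes, all 10 had a negative log2 fold change (median -0.48, and -0.72 without knockout 1), and 8 had both knockouts below both controls, where 15.4% of all tested genes did. Limma called 0, with 7 lower at an unadjusted p under 0.05 (3.55% of all tested genes), and DESeq2 called 5 lower (0.475% of all tested genes). Col1a1, a chain of type I collagen, the main collagen of bone, was at 386 and 365 CPM in the knockouts, against 561 and 758 CPM in the controls (log2 fold change -0.80). Col3a1, which forms type III fibrils, was at 148 and 104 CPM in the knockouts, against 215 and 289 CPM in the controls, and its knockout mean was 50.01% of the control mean. Col5a1 and Col5a2, chains of the type V collagen that sits in the core of fibrils, had log2 fold changes of -0.77 and -0.74. The type VI chains Col6a1 and Col6a2, named after their values were seen, overlapped between groups, at 173 and 90.7 CPM in the knockouts and 145 and 148 CPM in the controls for Col6a1.

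Genes for proteins that act on procollagen and lysyl oxidases after secretion had lower means in all 8 tested cases, with a median log2 fold change of -0.67. Pcolce2 did not pass the filter and was not tested. It overlapped between groups with a higher knockout mean, at 0.924 CPM in both knockouts, against 1.04 and 0.280 CPM in the controls. Of the 8 tested genes, 7 had both knockouts below both controls (15.4% of all tested genes). Limma called 0 with 6 lower at an unadjusted p under 0.05 (3.55%), and DESeq2 called 1, Postn (0.475%). Bmp1, the protease that removes the propeptides of both procollagen and Lox, was at 14.8 and 14.4 CPM in the knockouts, against 21.4 and 25.1 CPM in the controls (log2 fold change -0.65). Postn, a matricellular protein that helps Bmp1 act on Lox, was at 41.0 and 39.6 CPM in the knockouts, against 60.3 and 93.7 CPM in the controls (-0.89). Adamts2, a procollagen N-propeptidase, was at 18.6 and 16.7 CPM in the knockouts and 27.6 and 29.75 CPM in the controls (-0.69). Fbln5, an elastic fibre protein that binds Loxl1, was at 1.85 and 2.01 CPM in the knockouts and 4.03 and 3.71 CPM in the controls (-0.85).

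Steps inside the endoplasmic reticulum were mixed. Of 8 other hydroxylase genes and partners, 6 had a negative and 2 a positive log2 fold change (median -0.21, but -0.13 without knockout 1 and -0.07 with a filter of 5 CPM in 2 libraries), with 0 called by limma, 0 by edgeR and 0 by DESeq2, and 2, both lower, with an unadjusted p below 0.05, where 3.55% of all tested genes were. P3h3, of the prolyl 3-hydroxylase family, was at 4.49 and 3.26 CPM in the knockouts, against 7.47 and 8.33 CPM in the controls (log2 fold change -0.95), and P4ha3, an alternative catalytic subunit to P4ha1, was at 4.88 and 4.24 CPM against 7.53 and 5.81 CPM. P3h4 and P4ha2 had log2 fold changes of -0.41 and -0.35. Of 9 tested genes of collagen glycosylation, folding and export the median was -0.05 (-0.12 without control 1 and -0.02 without control 2). Of the 9, 3 had both knockouts below both controls (15.4% of all tested genes) and 2 had both above (16.5%). Limma called 0, with 2 lower at an unadjusted p under 0.05 (3.55% of all tested genes), and DESeq2 called 1 lower (0.475%). That gene was Sparc, a collagen-binding glycoprotein, at 142 and 152 CPM in the knockouts, against 212 and 227.5 CPM in the controls. Fkbp10, a collagen chaperone that acts with Plod2, was at 11.7 and 13.6 CPM in the knockouts, against 16.0 and 19.8 CPM in the controls (-0.48). The transcription factor gene Creb3l1 and the channel gene Tmem38b had log2 fold changes of -0.42 and 0.14.

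Genes that move the metal and ascorbate cofactors, an iron exporter included, had positive log2 fold changes in 7 of 7 tested genes. The median was 0.21, and 0.13 without control 2. None was called by any of the tools (0 in limma, 0 in edgeR, 0 in DESeq2). An unadjusted p below 0.05 was found for 2, both higher, where 1.35% of all tested genes were. These were Slc40a1, the iron exporter ferroportin, at 15.9 and 12.6 CPM in the knockouts and 10.1 and 9.87 CPM in the controls, and Tfrc, the transferrin receptor, at 7817 and 7531 CPM in the knockouts and 6136 and 5454 CPM in the controls. The copper chaperone gene Atox1 and the copper importer gene Slc31a1 had log2 fold changes of 0.25 and 0.21. Plod2, P4ha1, Lox and Loxl2 are known targets of hypoxia-inducible factor in other cells. Of 13 tested textbook targets of that factor outside the set, 8 had a positive and 5 a negative log2 fold change, the median was 0.06 but -0.04 without knockout 1 and -0.01 without control 1, and limma, edgeR and DESeq2 each called 0, none having an unadjusted p below 0.05. Examples are Pdk1, a kinase that restrains pyruvate oxidation, at 0.19, Adm at -0.43, Vegfa at -0.16 and Higd1a at -0.14. Enzymes that cross-link matrix by other chemistry overlapped between groups in 3 of 3 cases, among them transglutaminase 2 (Tgm2) at 221 and 223 CPM in the knockouts and 219.5 and 221.3 CPM in the controls.

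**Figure D4:**
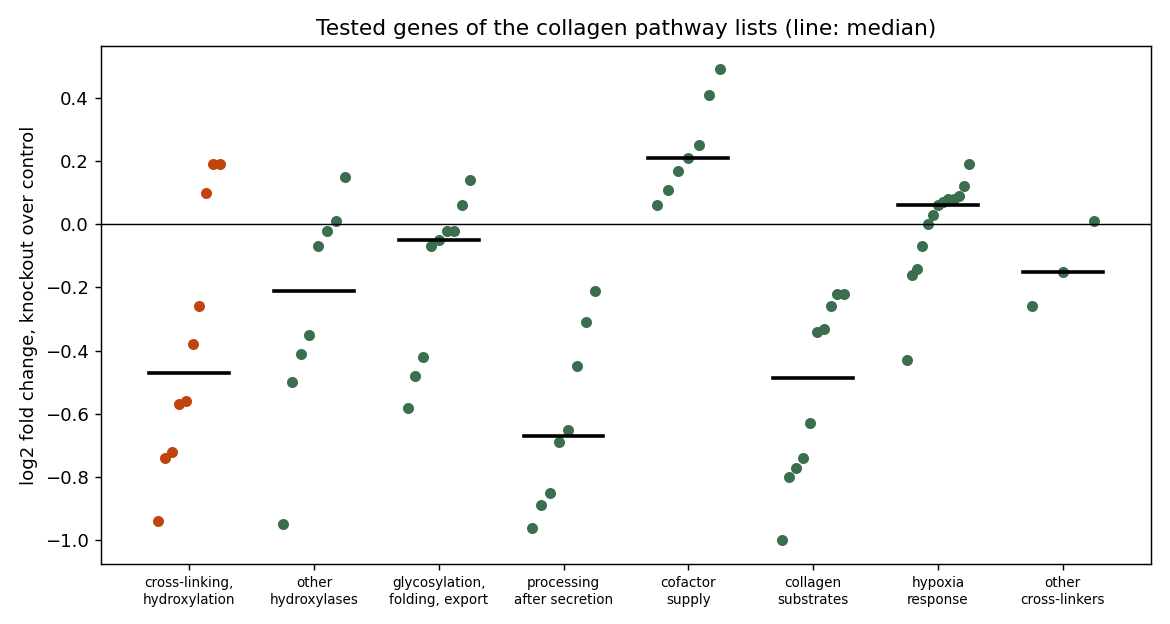
Log2 fold change, knockout over control, of every tested gene in 8 lists of the collagen pathway, 1 point a gene, with a line at the median of each list. Medians were -0.47 for the cross-linking and hydroxylation genes, -0.67 for processing after secretion, -0.48 for the collagen substrates and 0.21 for cofactor supply. The cofactor list includes an iron exporter.

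Some markers of stromal cells were also lower in the knockouts, and others were not. Of the 13 markers of stromal, fibroblast and osteoblast cells that were measured, 11 had a negative and 2 a positive log2 fold change (median -0.50), 8 had both knockouts below both controls and 5 overlapped. Limma called 0 of the 13, with 6 at an unadjusted p under 0.05, all lower, edgeR called 0 and DESeq2 called 5, each lower. Of all tested genes, 15.4% had both knockouts below both controls and 3.55% were lower at an unadjusted limma p under 0.05. DESeq2 called 0.475% of all tested genes lower. The 13 summed to 1245 and 1137 CPM in the knockouts, against 1731 and 2201 CPM in the controls, and none was at 0 in any library. Most of that sum came from the 5 markers that other lists hold too, Col1a1, Col1a2, Col3a1, Postn and Acta2, which were the 5 that DESeq2 called. The 8 markers in no other list summed to 95.5 and 74.2 CPM in the knockouts, against 93 and 95.6 CPM in the controls, which overlap, a split made after the values were seen. Of these 8, Pdgfrb, Runx2 and Sp7 had both knockouts below both controls, and Dcn, Lum, Pdgfra, Cxcl12 and Alpl overlapped. Pdgfrb, a receptor of mesenchymal cells and pericytes, was at 18.4 and 17.1 CPM in the knockouts, against 23.8 and 26.8 CPM in the controls. Cxcl12, a chemokine of marrow stromal cells, was at 43.9 and 27.4 CPM in the knockouts, against 34.55 and 32.97 CPM in the controls. It was the highest of the 8 in every library, and the overlap of their sum rested on it. Without Cxcl12, the sum of the remaining markers was lower in both knockouts than in both controls. The 6 smooth muscle and pericyte markers, Acta2 and Tagln among them, summed to 83.8 and 125 CPM in the knockouts, against 155.5 and 199.6 CPM in the controls. Of the 4 smooth muscle and pericyte markers that were tested, 3 had both knockouts below both controls. Limma called none (0, though 3 had an unadjusted p below 0.05), and DESeq2 called the 3 lower. The shares of all tested genes were those given for the stromal markers. The osteoclast markers summed to 61014 and 75672 CPM in the knockouts and 63050 and 60070 CPM in the controls. Of the 11, 9 had a positive and 2 a negative log2 fold change. Dcstamp and Tnfrsf11a had both knockouts above both controls, as 16.5% of all tested genes did, and 9 overlapped. Dcstamp was at 838 and 877 CPM in the knockouts, against 666 and 649 CPM in the controls. The part of stromal cells in the levels of the lysyl oxidases, Plod2 and Serpinh1 was not tested.

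Of the 10, Loxl2 and Plod2 had the largest fold changes in limma with all 4 libraries and a pseudocount of 0.5. In limma, Loxl3 exceeded Plod2 without control 2, without knockout 2 (-0.77 against -0.74) and with a pseudocount of 1 (-0.71 against -0.70). The first place of Loxl2 was not stable either. In limma, Plod2 exceeded Loxl2 without knockout 1 (-0.74 against -0.68), and Loxl3 exceeded Loxl2 without control 2 (-0.77 against -0.75). The genes with the pattern most like that of Loxl2 and Plod2 were sought among 9435 other genes averaging at least 5 CPM. Distance was the root mean square difference of log2(CPM + 0.5), centred on each gene's mean over the 4 libraries. Because Loxl2 and Plod2 were picked by fold change, genes near them share the difference between genotypes by construction. With only 4 values a gene, the likeness is a description and shared regulation was not tested. For Loxl2 the nearest genes were Tgfb3, Tagln and Smoc1, at distances of 0.083, 0.086 and 0.102. Tgfb3, a transforming growth factor, was at 8.91 and 12.8 CPM in the knockouts, against 18.25 and 21 CPM in the controls, and Tagln, the smooth muscle protein transgelin, at 8.91 and 11.6 CPM against 19.1 and 22.2 CPM. For Plod2 they were H2-T23, Col1a1 and Col5a2, at 0.014, 0.044 and 0.044. H2-T23, a histocompatibility gene whose reads can be shared with close paralogs, was at 30.0 and 29.7 CPM in the knockouts, against 41.7 and 58.3 CPM in the controls.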

How the data were processed

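Poly(A) RNA of 4 libraries was analysed, 2 knockout and 2 control. Per the submitters' processing notes, the tools included edgeR, STAR and Subread with its featureCounts, without versions, and the builds GRCm38 and mm10. The authors deposited 1 table with a normalised signal per gene and library. In each column 100% of values lay within 0.001 of a whole multiple of 1 step, which gave back whole reads. CPM with TMM factors, computed from these reads, differed from the deposited signal by at most 4.9e-11. For the annotation, the strand setting and any low-count filter of the authors, nothing is stated in the sources.

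Of 12799 genes, the 11781 that reached 1 CPM in 2 or more libraries were fitted with limma on log2(CPM + 0.5), using an intensity trend and genotype as the one factor. Tests were 2-sided, with Benjamini-Hochberg adjustment over all fitted genes, a threshold of 0.05 and 7.52 degrees of freedom after moderation. The pseudocount makes fold changes of low genes too small. Values are means ± SD over 2 libraries, for which an exact permutation test of 1 gene could not pass the threshold. P-values reflect the spread between these libraries, and read numbers cover counting error only. Every pair of libraries differed beyond sampling noise in a chi-square test of reads.

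Of each pathway list, genes called by limma, or else up to 4 with the smallest p, were named, as were Piezo1 and genes that a sentence on a member needed. The genes and lists were chosen with earlier results of these data known. Other settings tried were the pseudocount, the filter, the scaling, the variance model, a block for the replicate number, and leaving out each library. The recovered reads were also tested with edgeR and with DESeq2. Leaving out libraries in DESeq2 was chosen after seeing the data. Exon lengths and positions are those of GENCODE M21 on GRCm38, possibly another release than the authors used, with 12680 symbols found once. Each length covers all annotated exons of the gene, overlapping exons merged. The limma fit was tested on simulated reads, drawn with the same dispersion for every gene, and the edgeR and DESeq2 fits were not. The statistics ran in R 4.3.3 (DESeq2 1.42.0, edgeR 4.0.16, limma 3.58.1). Tables and figures were made in Python 3.11.15 with pandas 2.3.3, matplotlib 3.10.9, SciPy 1.17.1 and NumPy 2.4.6.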

Additional observations from a re-analysis of the deposited data

How the results depend on the processing

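Of the 10 collagen-modifying genes, 9 kept the direction of their fold change under every alternative run. Loxl4 changed sign without control replicate 2, to 0.07 in limma and 0.10 in DESeq2, and was at -0.59 in limma without control replicate 1. Over all genes, limma called 5 higher and 14 lower, against 2 and 2 without the intensity trend, 10 and 56 in DESeq2, and 18 and 71 with the replicate number as a block. With 1 library left out, limma called 2 to 16 higher and 4 to 60 lower, and the median log2 fold change of the 10 genes was -0.63 to -0.39. In DESeq2, where leaving out libraries was chosen after seeing the data, these were 5 to 11 higher, 11 to 44 lower (31 without knockout replicate 2) and -0.71 to -0.40. A lone library of a genotype was assumed to vary like the others. Deviations of same-numbered libraries had a correlation of -0.002 across genes. A single value over all genes cannot decide whether the replicate numbers pair the libraries. With the block, limma called 3 of the 10, Lox, Loxl2 and Loxl3. Depth limits Loxl4, at 15 to 26 reads a library. The causes of these shifts were not tested.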
